A study of Homo sapiens with 12 samples.

Results

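The genes described here are 10 genes of the osteoblast lineage and of the bone matrix, the transcription factors *RUNX2*, *SP7*, *DLX5* and *MSX2*, the enzyme gene *ALPL*, the matrix protein genes *SPARC*, *SPP1*, *BGLAP* and *IBSP*, and the secreted receptor gene *TNFRSF11B*. They were taken by symbol from the 43236 gene symbols of the count tables, and all 10 were listed there. Of the 10 genes, 6 had enough counts to be tested and 4 had so few that their raw counts are given instead. The counts come from MNNG/HOS cells (HOS-MNNG in the labels), an established human osteosarcoma line that was obtained by chemical transformation of HOS cells. RNA-seq was performed on 12 libraries of mRNA, 3 replicates each of cells given DMSO for 6 h, 300 nM NXP800 for 6 h, DMSO for 24 h or 300 nM NXP800 for 24 h. NXP800 is an oral small molecule developed from inhibitors of the heat shock response, and DMSO is its solvent and the control. The comparison asks which transcripts the compound changes at each time, so each NXP800 group was set against the DMSO group of its own time point. All values describe this single line.

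Osteoblasts arise from mesenchymal precursors under RUNX2, which binds DNA together with its partner CBFB, and under SP7 (osterix), which acts after it. DLX5 and MSX2 are homeobox factors of the same lineage that are often found to act in opposite ways on bone gene promoters. Mature osteoblasts then make alkaline phosphatase (ALPL), which frees phosphate for mineral, and secrete a matrix of type I collagen with the mineral- and cell-binding proteins osteonectin (SPARC), osteopontin (SPP1), bone sialoprotein (IBSP) and osteocalcin (BGLAP). Osteoprotegerin (TNFRSF11B) is a decoy receptor that captures RANKL, the signal by which osteoblast-lineage cells call for osteoclasts.

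Because RUNX2 is itself among the genes measured, the 250 bases before the RefSeq transcription start of 5 genes (GRCh38.p14) are shown, those of *RUNX2*, *MSX2*, *SPP1* and *SPARC*, whose RNA changed, and of *BGLAP*, whose promoter is a textbook RUNX2 target and whose counts were close to 0. Each is written 5′ to 3′ on the strand of the gene, and capitals mark a match, on either strand, to a RUNX core (TGTGGT), a homeobox core (TAATTA), a C/EBP-ATF composite (TGATGNAA), a GC box (GGGCGG) or a TATA box (TATAAA).
RUNX2, chr6:45328080-45328329, plus strand: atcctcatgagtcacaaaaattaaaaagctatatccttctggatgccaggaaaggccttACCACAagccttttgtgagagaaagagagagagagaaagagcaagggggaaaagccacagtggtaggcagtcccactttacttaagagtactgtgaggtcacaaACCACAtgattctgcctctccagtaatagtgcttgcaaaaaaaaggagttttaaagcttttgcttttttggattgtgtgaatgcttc
MSX2, chr5:174724332-174724581, plus strand: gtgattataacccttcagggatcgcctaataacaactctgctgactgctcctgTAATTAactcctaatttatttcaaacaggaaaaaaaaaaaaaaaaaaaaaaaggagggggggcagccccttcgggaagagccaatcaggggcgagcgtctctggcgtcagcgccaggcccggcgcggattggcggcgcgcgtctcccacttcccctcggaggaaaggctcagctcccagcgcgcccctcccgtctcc
SPP1, chr4:87975464-87975713, plus strand: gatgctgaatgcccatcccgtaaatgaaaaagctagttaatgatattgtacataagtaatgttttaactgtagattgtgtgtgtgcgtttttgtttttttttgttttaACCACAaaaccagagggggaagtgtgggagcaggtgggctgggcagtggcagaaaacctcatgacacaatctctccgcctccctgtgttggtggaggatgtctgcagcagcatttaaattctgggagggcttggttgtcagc
SPARC, chr5:151686916-151687165, minus strand: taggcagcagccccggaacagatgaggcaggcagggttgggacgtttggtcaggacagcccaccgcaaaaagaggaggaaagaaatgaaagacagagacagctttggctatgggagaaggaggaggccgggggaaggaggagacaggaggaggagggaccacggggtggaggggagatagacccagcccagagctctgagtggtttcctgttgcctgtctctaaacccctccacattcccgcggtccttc
BGLAP, chr1:156241934-156242183, plus strand: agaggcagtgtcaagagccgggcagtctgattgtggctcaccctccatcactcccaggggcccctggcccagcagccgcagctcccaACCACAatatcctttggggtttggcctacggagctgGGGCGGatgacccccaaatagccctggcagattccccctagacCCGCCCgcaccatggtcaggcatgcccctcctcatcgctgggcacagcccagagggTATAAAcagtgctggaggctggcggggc
The window of *RUNX2* held 2 RUNX cores, and those of *SPP1* and *BGLAP* held 1 each, against 10.9% of the 27305 RefSeq promoter windows of this length with at least 1. The *MSX2* window held 1 homeobox core, found in 4.49% of all windows. The *BGLAP* window also held 2 GC boxes and 1 TATA box, found in 42.3% and 11.1% of all windows. The *SPARC* window matched none of the 5 motifs, nor did the *ALPL* window, and that of *IBSP* held 1 TATA box. The C/EBP-ATF composite, present in 3.19% of all windows, was in none of these 7 windows. No match overlapped another. A match describes letters only, and binding was not measured.

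The files hold raw counts for each gene, and a library sums to between 30810614 and 31947656 counts. Levels are given in CPM, the usual scaling of counts to a common library total, here after TMM scaling, as mean ± SD of 3 replicates. Changes are log2 fold changes with their standard error (SE) from the quasi-likelihood test of edgeR, adjusted by the Benjamini-Hochberg method over the 15979 genes that passed a filter on low counts. A gene is called increased or decreased at an adjusted p below 0.05. The labels do not say whether replicates are separate cultures, while the study's methods describe its repeats as independent experiments, and p-values measure the spread between these libraries. The libraries of the 2 time points differed, with 6.66 to 8.14% of reads on no annotated gene at 6 h against 2.73 to 3.67% at 24 h. Between time points, for levels and for responses, the hours of treatment therefore cannot be told apart from the set of libraries.

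The response to NXP800 ran in opposite directions within these genes. The RNA of the transcription factors RUNX2 and MSX2 rose at both times and that of DLX5 at 24 h, the last a less firm call. The RNA of the matrix proteins SPARC (both times) and SPP1 (24 h) fell. This contrast holds for these genes only, since in the wider lists below some transcription factor genes fell and some matrix protein genes rose. At 6 h, 3 of the 6 tested genes were called, 2 up and 1 down, where 52.8% of all tested genes were called, 25.0% up and 27.8% down. At 24 h 5 of 6 were called, 3 up and 2 down, where 56.0% of all tested genes were called, 27.5% up and 28.6% down. The replicates of NXP800 and DMSO did not overlap in 3 of the 6 genes at 6 h, 2 of them up and 1 down, where 62.0% of all tested genes had no overlap (29.3% up and 32.7% down). At 24 h they did not overlap in 5, of which 3 were up and 2 down, where the share was 59.1% (29.0% up and 30.1% down). The counts are thus near the background at 6 h. At 24 h they are above it, but 6 genes are too few to read this as a result. The sizes and directions carry the description. In bulk RNA, fewer cells that express a gene and less of its RNA per cell cannot be told apart.

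**Figure D1:**
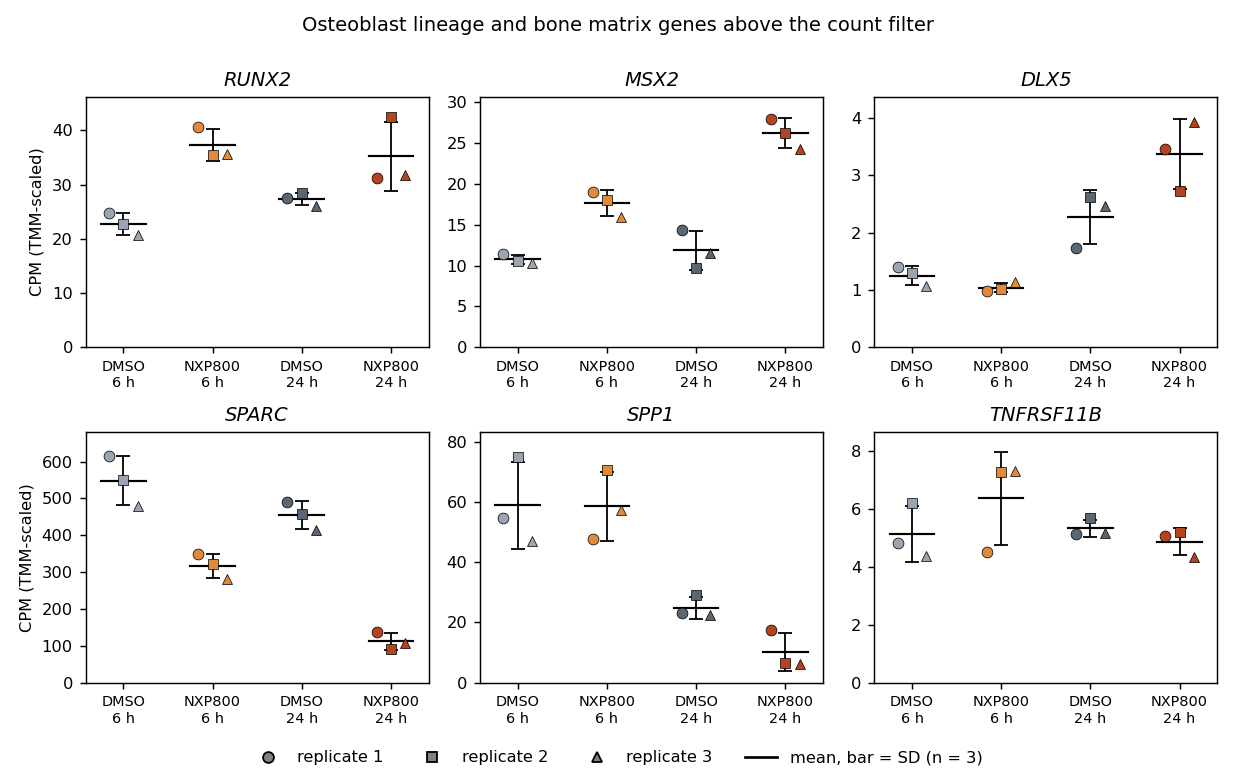
Level of the 6 tested genes in each of the 12 libraries, in CPM on a linear axis that starts at 0. Symbols are replicates 1 to 3, horizontal lines the mean and bars the SD of 3 replicates. *SPARC* fell from a mean of 454 to 112 CPM at 24 h, and *MSX2* rose from 11.9 to 26.2 CPM.

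Levels of different genes are comparable only per length. On the scale of CPM per kilobase of the Ensembl canonical transcript, *SPARC* was the most abundant of the 10 genes in every group, with means of 159 in DMSO and 91.9 in NXP800 at 6 h, and of 132 and 32.5 at 24 h. *SPP1* followed, with 37.8 and 37.5 CPM per kilobase at 6 h, and 15.9 and 6.54 at 24 h. Next came *MSX2* (4.91, 8.03, 5.42 and 11.9 CPM per kilobase in the same order of groups) and *RUNX2* (4.10, 6.72, 4.94 and 6.35), whose ranges overlapped in the NXP800 6 h and DMSO 24 h libraries. With NXP800 at 24 h the mean of *MSX2* was above that of *SPP1*, with a small overlap, 11.3 CPM per kilobase in the highest *SPP1* library against 11.1 in the lowest *MSX2* library, and the ranges of *SPP1* and *RUNX2* overlapped too. *TNFRSF11B* (2.46, 3.05, 2.56 and 2.34) and *DLX5* (0.881, 0.735, 1.61 and 2.38) were the lowest of the tested genes, and at 24 h with NXP800 their ranges overlapped. *ALPL* reached at most 0.0874 CPM per kilobase in a library.

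*RUNX2* (chr6:45328330-45551082, plus strand), the master factor of osteoblast commitment, rose at both times. At 6 h it had 781, 719 and 683 counts in DMSO libraries and 1324, 1161 and 1158 with NXP800, or 22.7 ± 2.00 against 37.2 ± 2.95 CPM. Every NXP800 library lay above every DMSO library, with a log2 fold change of 0.71 (SE 0.11, 1.64-fold, adjusted p = 4.08e-05). At 24 h the counts were 825, 844 and 761 in DMSO and 948, 1356 and 998 with NXP800, or 27.4 ± 1.14 against 35.2 ± 6.32 CPM. The groups again did not overlap, but replicate 2 with NXP800 stood well above the other two, and the rise was smaller, with a log2 fold change of 0.36 (SE 0.11, adjusted p = 0.00879). The 24 h response minus the 6 h response was -0.35 (SE 0.15), which did not pass the threshold (adjusted p = 0.105). It passed with the replicate number as a block (-0.36, adjusted p = 0.00804) and without replicate 2 of NXP800 24 h (-0.51, adjusted p = 0.00564). *CBFB*, which encodes the partner of RUNX2, was not called at 6 h (log2 fold change 0.0065, adjusted p = 0.956) or 24 h (-0.14, adjusted p = 0.18).

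*MSX2* (chr5:174724582-174730896, plus strand), a homeobox factor of skull and limb bone, rose at both times and had the largest rise of the 6 genes at 24 h. At 6 h the counts were 360, 335 and 341 in DMSO and 619, 588 and 518 with NXP800, or 10.8 ± 0.555 against 17.6 ± 1.58 CPM. At 24 h they were 431, 288 and 337 in DMSO and 848, 838 and 763 with NXP800, or 11.9 ± 2.38 against 26.2 ± 1.83 CPM. No libraries overlapped at either time. The log2 fold change was 0.71 at 6 h (SE 0.12, adjusted p = 0.000127) and 1.14 at 24 h (SE 0.12, 2.20-fold, adjusted p = 7.23e-07). The gain of 0.43 between the responses did not pass the threshold (SE 0.17, adjusted p = 0.0756). It passed in 4 of 19 alternatives, among them the replicate block (adjusted p = 0.00774) and the fit without replicate 1 of DMSO 24 h, the highest *MSX2* library of that group (0.59, adjusted p = 0.00982). Its paralog *MSX1* went the other way at 24 h, from 67.7 ± 3.95 to 38.3 ± 2.85 CPM (log2 fold change -0.82, SE 0.087, adjusted p = 7.33e-07), with -0.17 at 6 h (adjusted p = 0.101, and 0.0111 with the replicate block).

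*DLX5* (chr7:97020396-97024831, minus strand), a homeobox activator of bone genes, was low and changed at 24 h. At 6 h it had 44, 41 and 35 counts in DMSO and 32, 33 and 37 with NXP800. These overlap, with a log2 fold change of -0.26 (SE 0.23, 95% interval -0.74 to 0.22, adjusted p = 0.359). At 24 h it had 52, 78 and 72 counts in DMSO and 105, 87 and 123 with NXP800, or 2.28 ± 0.472 against 3.37 ± 0.604 CPM. The groups were apart by a small gap, 2.62 CPM in the highest DMSO library against 2.73 in the lowest NXP800 library. The log2 fold change of 0.57 passed the threshold (SE 0.19, adjusted p = 0.0186), and no longer did without replicate 1 of DMSO 24 h (0.40, adjusted p = 0.0995) or without replicate 3 of NXP800 24 h (0.44, adjusted p = 0.0851). The difference of the responses was 0.82 (SE 0.30, adjusted p = 0.0516, and 0.0311 with the replicate block). It passed in 7 of 19 alternatives, with adjusted p of 0.0255 to 0.123. *DLX6*, its neighbour in the same gene pair, fell at 6 h from 3.63 ± 0.691 to 1.56 ± 0.430 CPM (log2 fold change -1.21, SE 0.20, adjusted p = 1e-04) and was not called at 24 h (0.16, adjusted p = 0.486).

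*SP7* (chr12:53326575-53344793, minus strand), the factor downstream of RUNX2, was close to 0. It had 3 counts in all 12 libraries, 1 each in replicate 3 of NXP800 6 h and in replicates 1 and 3 of NXP800 24 h, and 0 in the 6 DMSO libraries. A count of 0 allows up to 3 counts of a library, which is 0.0911 to 0.103 CPM, for counting error only, so no difference was detectable at this depth.

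*ALPL* (chr1:21508984-21578410, plus strand), the alkaline phosphatase of bone, liver and kidney, had 30 counts in all. At 6 h there were 7, 2 and 1 in DMSO libraries and 0, 2 and 2 with NXP800, and at 24 h 3 in each DMSO library and 1, 4 and 2 with NXP800. The groups overlap at both times. The placental, germ cell and intestinal alkaline phosphatase genes had 11 (*ALPP*), 5 (*ALPG*) and 0 (*ALPI*) counts in all 12 libraries, and because these are near-identical copies their reads cannot be assigned with certainty.

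**Figure D2:**
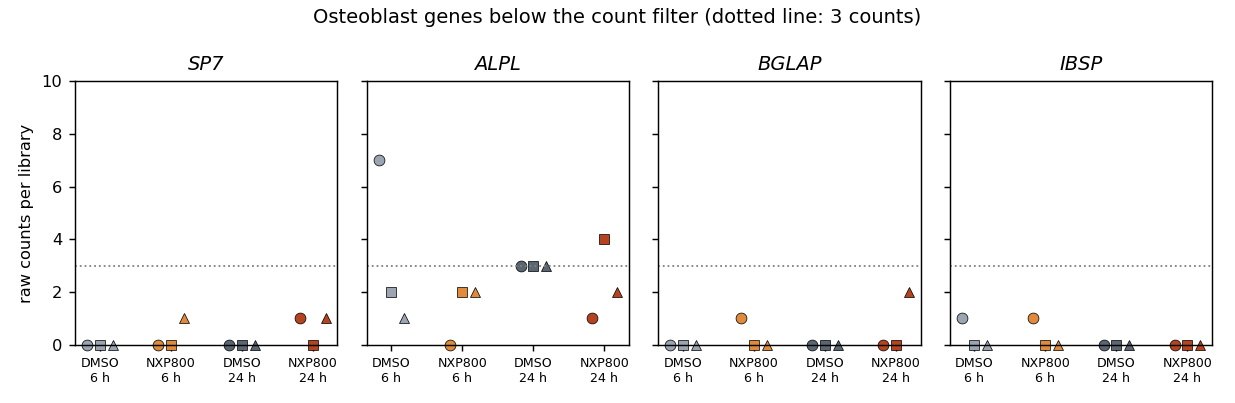
Raw counts of the 4 genes below the count filter in each library, on a linear axis from 0 to 10. Symbols are replicates 1 (circle), 2 (square) and 3 (triangle), and the dotted line marks 3 counts. The highest value is 7 counts, of *ALPL* in replicate 1 of DMSO 6 h.

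*SPARC* (chr5:151661096-151686915, minus strand), a collagen- and calcium-binding glycoprotein, had the largest change of the 6 tested genes at each time. At 6 h it had 19399, 17469 and 15805 counts in DMSO and 11348, 10504 and 9180 with NXP800, or 548 ± 67.2 against 317 ± 33.5 CPM. At 24 h it had 14645, 13646 and 12094 counts in DMSO and 4162, 2924 and 3362 with NXP800, or 454 ± 37.5 against 112 ± 23.3 CPM. No libraries overlapped at either time, and the same-number ratios of NXP800 to DMSO were 0.567 to 0.587 at 6 h and at most 0.280 at 24 h. Its log2 fold change was -0.79 at 6 h (SE 0.12, adjusted p = 6.05e-05) and -2.02 at 24 h (SE 0.13, 4.06-fold lower, adjusted p = 2.69e-09). Only 3.39% of all tested genes had a larger change in size at 24 h. For the other called genes at 24 h this share was 9.19% (*SPP1*), 11.96% (*MSX2*), 34.3% (*DLX5*) and 51.6% (*RUNX2*). The 24 h rise of *RUNX2* was thus near the middle of all tested genes in size. At 6 h the share was 17.9% for *SPARC*, 21.2% for *RUNX2* and 21.4% for *MSX2*. The fall of *SPARC* was larger in the 24 h libraries than in the 6 h libraries. The difference of its responses was -1.23 (SE 0.18, adjusted p = 0.000113). This call was kept under all 19 alternatives tried. Of the GENCODE exon length of *SPARC*, 4.12% overlaps the opposite-strand gene *CLMAT3*.

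*SPP1* (chr4:87975714-87983411, plus strand), which encodes an acidic cell-binding phosphoprotein made by osteoblasts and by many tumours, fell at 24 h. At 6 h it had 1728, 2379 and 1553 counts in DMSO and 1553, 2309 and 1872 with NXP800, or 58.9 ± 14.4 against 58.6 ± 11.5 CPM. These groups overlap entirely, with a log2 fold change of -0.0089 (95% interval -0.56 to 0.54, adjusted p = 0.979). At 24 h it had 688, 867 and 653 counts in DMSO and 534, 214 and 197 with NXP800, or 24.9 ± 3.73 against 10.2 ± 6.43 CPM. Every NXP800 library was below every DMSO library, but the same-number ratios were uneven, 0.766, 0.230 and 0.280, since replicate 1 with NXP800 kept 17.6 CPM against 6.71 and 6.28 in the other two. The log2 fold change was -1.29 (SE 0.29, adjusted p = 0.0013), and -1.94 without that replicate (adjusted p = 2.79e-06). The responses differed by -1.28 (SE 0.39, adjusted p = 0.0238). That call is less firm than the one for *SPARC*, since it did not pass with DESeq2 (adjusted p = 0.0801) or without any 1 of 6 single libraries (replicates 1 and 3 of DMSO 6 h, 2 of NXP800 6 h, 2 of DMSO 24 h, and 2 and 3 of NXP800 24 h), with adjusted p between 0.0514 and 0.0617. DMSO libraries also held less *SPP1* at 24 h than at 6 h, a difference that cannot be told apart from that between the sets of libraries.

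**Figure D3:**
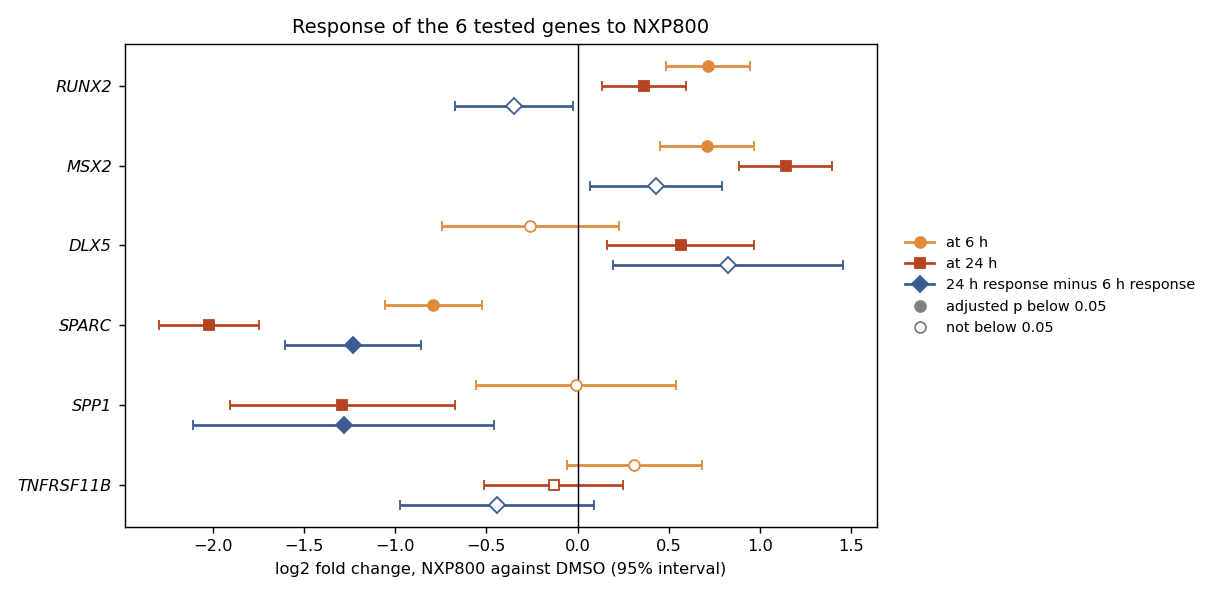
Log2 fold change of NXP800 against DMSO for the 6 tested genes at 6 h (circles), at 24 h (squares) and for the 24 h response minus the 6 h response (diamonds), with 95% intervals that are not adjusted for the number of genes. Filled symbols have an adjusted p below 0.05. *SPARC* lies at -0.79 and -2.02 and *MSX2* at 0.71 and 1.14, while *SPP1* moves from -0.0089 to -1.29.

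*IBSP* (chr4:87799554-87812435, plus strand), a mineral-nucleating matrix protein from the same gene cluster as *SPP1*, had 2 counts in all, 1 each in replicate 1 of DMSO 6 h and replicate 1 of NXP800 6 h. *BGLAP* (chr1:156242184-156243317, plus strand), the late osteoblast hormone and matrix protein gene, had 3 counts in all, 1 in replicate 1 of NXP800 6 h and 2 in replicate 3 of NXP800 24 h. Its low counts cannot be read as absence, because *BGLAP* lies within the readthrough gene *PMF1-BGLAP* (chr1:156212988-156243332) and shares 40.9% of its GENCODE exon length with it on the same strand, and a counter that sets aside reads on overlapping genes gives such reads to neither. *PMF1-BGLAP* was at 0 in all 12 libraries. *PMF1* alone had 288 to 428 counts per library, and was not called at 6 h (log2 fold change -0.12, adjusted p = 0.321) and fell at 24 h (-0.46, adjusted p = 0.000684). With no filter on low counts, none of *SP7*, *ALPL*, *BGLAP* and *IBSP* was called in either comparison or in the difference (adjusted p 0.366 to 1).

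*TNFRSF11B* (chr8:118923557-118951885, minus strand), the gene of osteoprotegerin, was the tested gene with no call at either time in the model without the replicate block. At 6 h it had 153, 197 and 144 counts in DMSO and 147, 238 and 239 with NXP800, or 5.14 ± 0.953 against 6.37 ± 1.61 CPM. The groups overlap because replicate 1 with NXP800 stayed at 4.51 CPM while the other two reached 7.28 and 7.33 CPM, and the log2 fold change was 0.31 (SE 0.17, 95% interval -0.060 to 0.68, adjusted p = 0.149). The value passed the threshold with the replicate block (0.30, adjusted p = 0.0488) and without replicate 1 of NXP800 6 h (0.51, adjusted p = 0.0134). At 24 h the counts were 154, 169 and 151 in DMSO and 154, 166 and 136 with NXP800, with overlap and a log2 fold change of -0.13 (SE 0.18, 95% interval -0.51 to 0.25, adjusted p = 0.555). The difference of the responses was -0.44 (SE 0.25, adjusted p = 0.215), and it passed in 1 of 19 alternatives. RANKL itself (*TNFSF11*), the ligand that osteoprotegerin captures, had 1 count in all 12 libraries.

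Over the 12 libraries, the tested genes most like *SPARC* in log2 CPM were *WDR76* (Pearson r = 0.993), *MAD2L1* (0.992) and *PAICS* (0.991). The genes most like *SPP1* were *COQ2* (r = 0.975) and *REXO5* (0.973), and those most like *DLX5* were *COMMD7* (0.981), *YIPF1* (0.976) and *ORAI3* (0.971). These 3 genes had the widest range of group means, and the 12 points share the same 4 groups, so the coefficients are descriptions.

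Beyond the 10 genes, 6 lists of other bone genes hold 80 genes, of which 59 were tested. At 6 h, 13 of the 59 rose and 26 fell, where 25.0% of all tested genes rose and 27.8% fell. At 24 h 15 rose and 31 fell, beside 27.5% and 28.6% of all tested genes. The rises were thus near the background share and the falls above it. The median log2 fold change of the 59 was -0.18 at 6 h and -0.27 at 24 h, beside -0.046 and -0.0033 over all tested genes. The difference of the responses was called in 10 genes of the 59 upward and 21 downward, beside 1924 and 2205 of all 15979 tested genes. Among the 6 tested genes of the 10 it was called in 2, both downward, where 25.8% of all tested genes were called in either direction and 13.8% downward. With the replicate block it was called in 5 of the 6, downward in *RUNX2*, *SPP1* and *SPARC* and upward in *MSX2* and *DLX5*, where 39.3% of all tested genes were called.

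**Figure D4:**
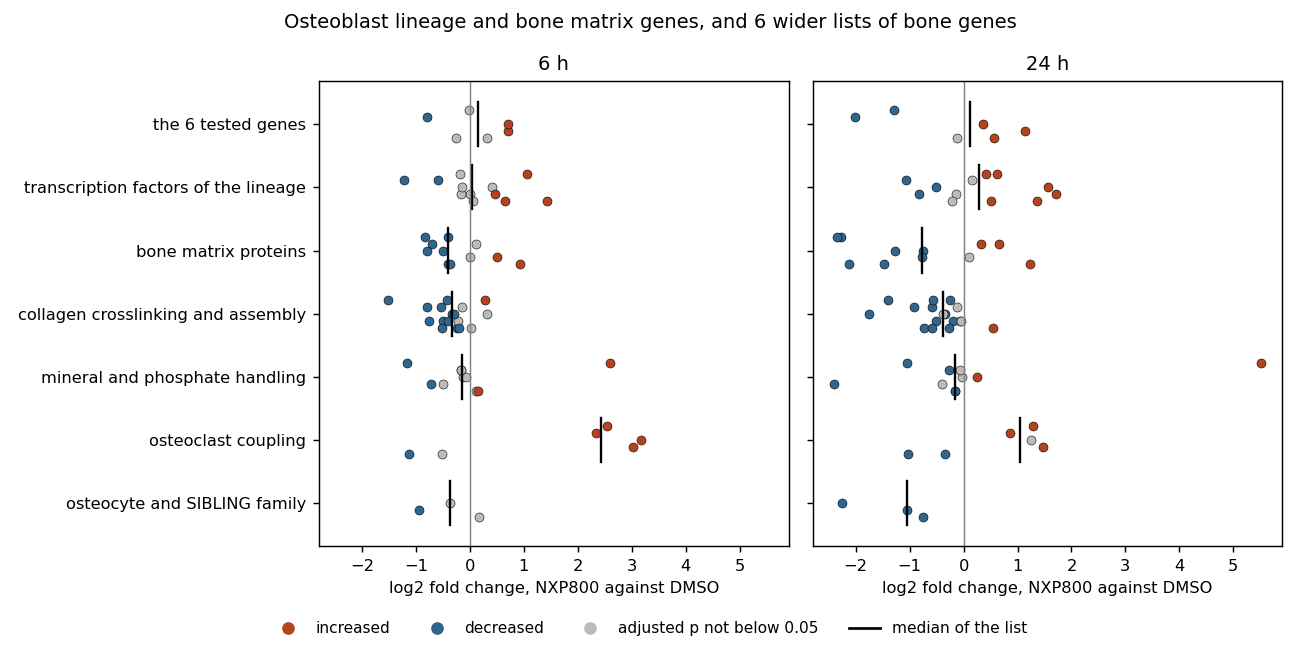
Log2 fold change of NXP800 against DMSO at 6 h and 24 h for the 6 tested genes and the tested genes of 6 wider lists, on a shared horizontal axis. Each point is a gene, coloured by its call at an adjusted p below 0.05, and vertical lines are list medians. The point beyond 5 at 24 h is *SMPD3*, whose DMSO libraries held 0, 0 and 2 counts.

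Among other transcription factors of the lineage, all 12 listed were tested. At 6 h 4 rose and 2 fell, a number of calls near the background of 52.8%, and at 24 h 6 rose and 3 fell, beside 27.5% up and 28.6% down over all tested genes. *HEY1*, a Notch effector that restrains RUNX2, rose from 25.0 ± 4.75 to 67.4 ± 7.83 CPM at 6 h, a log2 fold change of 1.43 (SE 0.12), and by 1.35 at 24 h (SE 0.12). *FOSL2*, an AP-1 subunit, rose by 1.05 and 0.62, and *ATF4*, a stress-responsive factor that osteoblasts require, rose by 0.66 at 6 h (SE 0.073). *TWIST1*, which represses RUNX2 in precursors, fell by 0.59 at 6 h (SE 0.076) and by 1.07 at 24 h (SE 0.078). At 24 h *ZNF521*, a zinc finger partner of RUNX2, rose from 2.12 ± 0.238 to 6.95 ± 0.574 CPM (log2 fold change 1.71, SE 0.16). The adjusted p of these values was at most 3.6e-05. The other rises were those of *ZNF521* at 6 h (0.47, adjusted p = 0.0237, lost without replicate 2 of DMSO 6 h, adjusted p = 0.116, or replicate 1 of NXP800 6 h, adjusted p = 0.109) and of *ATF4* (0.51), *DLX3* (1.56) and *TWIST2* (0.42) at 24 h, the last 2 named after their values were seen.

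Of 20 listed genes of other bone matrix proteins, 11 were tested. At 6 h 2 of these rose and 7 fell and at 24 h 3 rose and 7 fell, where 27.8% and 28.6% of all tested genes fell, and their median log2 fold changes were -0.41 and -0.78. Biglycan (*BGN*), a small proteoglycan, fell from 397 ± 54.5 to 91.4 ± 15.3 CPM at 24 h, a log2 fold change of -2.12 (SE 0.11, adjusted p = 4.14e-10). Thrombospondin 1 (*THBS1*) fell by 0.83 at 6 h (SE 0.13) and by 2.34 at 24 h (SE 0.14), and the type V collagen chain gene *COL5A2* by 2.28 at 24 h (SE 0.16). Its partner chain *COL5A1* fell by 0.71 at 6 h (SE 0.12) and rose by 0.33 at 24 h (SE 0.12, adjusted p = 0.0228), a call that was lost without replicate 3 of DMSO 24 h (0.26, adjusted p = 0.0997) or replicate 2 of NXP800 24 h (0.21, adjusted p = 0.116). Tenascin C (*TNC*), a matrix protein of wounds and of bone surfaces, rose from 263 ± 25.9 to 615 ± 109 CPM at 24 h, a log2 fold change of 1.23 (SE 0.12), and by 0.92 at 6 h (SE 0.11). At 6 h *NID1* (nidogen) fell by 0.79 (SE 0.072) and *FN1* (fibronectin) rose by 0.50 (SE 0.13). *SPOCK1*, a testican proteoglycan, passed the threshold at 24 h (log2 fold change 0.65, SE 0.24, adjusted p = 0.0295), but its libraries overlapped, with 39.8 CPM in the highest DMSO library against 28.9 in the lowest NXP800 library. The call was lost without replicate 2 (0.40, adjusted p = 0.146) or 3 (0.54, adjusted p = 0.107) of DMSO 24 h or replicate 1 of NXP800 24 h (0.38, adjusted p = 0.197), and the value was 1.09 without replicate 1 of DMSO 24 h.

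The 9 matrix genes below the filter include decorin (*DCN*) and lumican (*LUM*) with 2 counts each in all 12 libraries, periostin (*POSTN*) and fibromodulin (*FMOD*) with 0, and matrix Gla protein (*MGP*) with 22. The chains of type I collagen, the main protein of bone, were unequal. *COL1A1*, named after its values were seen, had 104353 counts over the 12 libraries and fell by 0.50 at 6 h (SE 0.16, adjusted p = 0.0133) and by 0.76 at 24 h (SE 0.16, adjusted p = 0.000611). *COL1A2* had 47 counts and was not tested. Per kilobase of transcript this is a mean of 47.5 against 0.0244 CPM.

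All 17 listed genes of enzymes and chaperones that assemble collagen were tested, and at each time 12 fell and 1 rose, beside 27.8% of all tested genes that fell at 6 h and 28.6% at 24 h. *LOXL1*, a lysyl oxidase that crosslinks fibres, fell by 1.52 at 6 h (SE 0.17) and 1.41 at 24 h (SE 0.16), and *PLOD1*, a lysyl hydroxylase, by 0.80 (SE 0.093) and 0.93 (SE 0.093). *PCOLCE*, which enhances procollagen cleavage, fell by 1.75 at 24 h (SE 0.10, adjusted p = 7.86e-10). *SERPINH1*, the collagen chaperone HSP47, fell by 0.75 at 6 h (SE 0.073), with -0.05 at 24 h (adjusted p = 0.581). The rises were those of *PLOD2* at 6 h (0.27, SE 0.095, adjusted p = 0.0233, lost without replicate 3 of DMSO 6 h, adjusted p = 0.118, or replicates 1 or 2 of NXP800 6 h, adjusted p = 0.0764 and 0.102) and of *BMP1*, the procollagen C-proteinase, at 24 h (0.54, SE 0.070, adjusted p = 6.63e-06).

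Of 14 genes of mineral and phosphate handling, 10 were tested, and 2 rose and 3 fell at 6 h and 2 rose and 4 fell at 24 h, near the 52.8% and 56.0% of all tested genes that were called. *ENPP1*, which makes the mineralization inhibitor pyrophosphate, fell from 32.8 ± 6.15 to 6.20 ± 0.106 CPM at 24 h, a log2 fold change of -2.40 (SE 0.12), and by 0.72 at 6 h (SE 0.11). *FAM20C*, the kinase that phosphorylates osteopontin and other secreted proteins, fell by 1.16 and 1.05 (SE 0.13 and 0.12). Smaller calls were those of *FAM20B* (-0.17 and -0.27), *NT5E* (0.16 and -0.15) and *ENTPD5* (0.25 at 24 h). The call of *FAM20B* at 24 h was kept under all 20 alternatives, and the others were less firm. That of *NT5E* was lost at 6 h without any one library of that time (adjusted p 0.0521 to 0.0844) and at 24 h without replicate 3 of DMSO 24 h or any one NXP800 24 h library (0.0595 to 0.155). It was also lost with no filter on low counts (0.114 at 6 h, 0.195 at 24 h). At 24 h it was lost with library size only (0.369) and with the 6 libraries of that time alone (0.137). That of *FAM20B* at 6 h was lost without any one library of that time other than replicate 3 of DMSO, and without replicate 1 of DMSO 24 h or 2 of NXP800 24 h (0.0509 to 0.133). It was also lost with DESeq2 size factors (0.0681), library size only (0.0542), no filter (0.124) and the Wald test of DESeq2 (0.0903). That of *ENTPD5* was lost without replicate 1 or 2 of DMSO 24 h (0.0641 and 0.0664). *SMPD3*, a sphingomyelinase required for mineralization that was named after its values were seen, had 3, 2 and 2 counts in DMSO and 15 in each NXP800 library at 6 h, and 0, 0 and 2 against 41, 41 and 31 at 24 h (adjusted p = 0.000243 and 1.88e-07). With so few DMSO counts its fitted fold change depends on the prior count and is not read here.

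Of 9 listed genes of signals from bone cells to osteoclasts, 6 were tested, of which 4 rose and 1 fell at 6 h and 3 rose and 2 fell at 24 h, beside 25.0% and 27.5% of all tested genes that rose. *IL11*, a cytokine that promotes osteoclast formation, rose from 41.6 ± 11.2 to 338 ± 42.5 CPM at 6 h, a log2 fold change of 3.02 (SE 0.19, adjusted p = 3.51e-09) and from 30.8 ± 1.01 to 85.9 ± 25.2 CPM at 24 h (1.48, SE 0.19, adjusted p = 4.94e-06). *PTHLH*, the parathyroid hormone-like protein of bone metastasis, rose by 2.54 and 1.28 (SE 0.30 and 0.31), and *LIF* by 2.34 and 0.86 (SE 0.17 in both). The *PTHLH* libraries overlapped at 24 h, with 12.4 CPM in the highest DMSO library against 9.86 in the lowest NXP800 library. With a library left out, its 24 h value was 0.80 to 1.67, and the call was kept. *CSF1*, the growth factor that osteoclast precursors need, fell by 1.13 at 6 h (SE 0.14) and by 0.34 at 24 h (SE 0.13, adjusted p = 0.042). The 24 h call of *CSF1* was lost without replicate 2 or 3 of DMSO 24 h, 1 or 2 of NXP800 24 h, 2 of DMSO 6 h or 1 of NXP800 6 h (adjusted p 0.05 to 0.192), with a log2 fold change of -0.22 without replicate 1 of NXP800 24 h. *IL6*, named after its values were seen, had 12, 7 and 14 counts in DMSO and 122, 111 and 71 with NXP800 at 6 h (log2 fold change 3.17, SE 0.45, adjusted p = 1.97e-05) and no call at 24 h. *TNFRSF11A*, the receptor of RANKL, also named afterwards, fell by 1.04 at 24 h (adjusted p = 0.00702). *TNFRSF11B* itself, which acts on the same axis, had 0.31 and -0.13 and no call. Of 8 osteocyte and SIBLING family genes only *PHEX*, *PDPN* and *CD44* were tested, of which *PHEX* and *PDPN* were named after their values were seen. All 3 fell at 24 h, by 2.26, 1.04 and 0.76, where 28.6% of all tested genes fell. *PDPN* also fell at 6 h, by 0.94, where 27.8% of all tested genes fell. *DMP1*, *MEPE* and *FGF23* were at 0 in every library.

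The labelled cell type, osteosarcoma, could be checked only in part, since of the 10 genes *SP7*, *ALPL*, *BGLAP* and *IBSP*, which mark committed and mature osteoblasts, were at or near 0. The low counts of *BGLAP* cannot be read as absence, because of its overlap with *PMF1-BGLAP* given above. Of markers of other lineages, 5 of 12 chondrocyte genes, 4 of 8 adipocyte genes, 6 of 10 epithelial, endothelial and blood genes and 0 of 7 muscle genes were tested, against 7 of 7 mesenchymal genes. Sums of their levels are not scaled by length and mostly follow the most abundant genes. Over the 12 libraries *VIM* averaged 4324 CPM, *SOX9* 115, *PPARG* 55.2, and *KRT8* and *KRT18* 670 and 738. The summed level of the mesenchymal genes was 5352 to 5414 CPM in DMSO and 4762 to 4863 with NXP800 at 6 h. At 24 h it was 6047 to 7044 against 3970 to 4954. All 7 were called decreased at 24 h, where 28.6% of all tested genes fell, and the call of *NT5E* is the less firm one given above. At 6 h *ENG*, *THY1*, *PDGFRB* and *S100A4* fell and *NT5E* rose, where 27.8% of all tested genes fell and 25.0% rose. The chondrocyte sum was 122 to 154 and 117 to 130 CPM at 6 h and 125 to 136 and 139 to 147 at 24 h. *COL2A1* fell at both times, at 6 h with overlapping libraries (adjusted p = 0.0403). *SOX6* rose at 6 h (adjusted p = 0.0392), and *SOX9* and *MATN1* rose at 24 h (adjusted p = 0.00638 and 0.022). *SOX6* and *MATN1*, with 175 and 110 counts in all 12 libraries, were below the level set for naming and were named after their values were seen. The adipocyte sum was 70.6 to 90.8 and 52.2 to 65.3 CPM at 6 h and 66.1 to 79.8 and 45.1 to 53.1 at 24 h. *PPARG* and *FABP4* fell at both times, and *CEBPA* fell at 6 h and rose at 24 h. *FABP4*, also named afterwards, had 2 to 380 counts in a library. The sum of the epithelial, endothelial and blood genes was 1327 to 1581 and 1235 to 1394 at 6 h and 1802 to 1875 and 1202 to 1513 at 24 h. *PECAM1* fell at 6 h, *VWF* at both times and *KRT8* and *KRT18* at 24 h, when *EPCAM* and *CD68* rose. *PECAM1* and *VWF*, also named afterwards, had 162 counts each in all 12 libraries. The muscle sum did not pass 0.190 CPM, and *HBB* was at 0 in every library. The part of these marker genes in the changes of the bone genes was not tested. Of their calls, only those of *NT5E* and *CD44* were recomputed under the alternatives.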

How the data were processed

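RNA-seq was done on 12 libraries of MNNG/HOS cells, in triplicate, after 6 h or 24 h in DMSO or in 300 nM NXP800. Per the labels and the study's methods, strand-specific mRNA libraries were sequenced as paired ends, and the authors' processing notes name fastp 0.20.1, STAR 2.7.5a and HTSeq 0.12.4 with hg38 and a RefSeq annotation of GRCh38.p14. The authors deposited raw counts by gene symbol, not normalized. The strand setting and the rule for reads on overlapping genes are not given in the sources used here. Entries that name no gene, 8.02 to 12.2% of a library, stayed out of library sizes and tests. With 30810614 to 31947656 counts per library, counting error is small for all but low genes.

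Counts were scaled by TMM and fitted in R 4.3.3 with edgeR 4.0.16 (quasi-likelihood) and limma 3.58.1, in 1 model of the 4 groups, over 15979 genes kept by filterByExpr. NXP800 was contrasted with DMSO within each time, and the 6 h response was subtracted from the 24 h response. The procedure was also run on simulated counts. These had no replicate pairing and far fewer changed genes than were called here, so they do not give its error rate for these data. Replicates of a group differed by more than sampling noise (chi-square divided by its degrees of freedom, 7.36 to 26.3, counting genes of 20 counts or more), and no pair was a duplicate. The replicate numbers, which come from the sample titles, pair the libraries: the deviations from the group means correlated across genes with r of 0.159 to 0.329 between treated and control libraries that share a number, and with at most 0.0580 between those that do not. The main model has no term for this pairing, so its standard errors and p-values do not use it. The replicate block was fitted as an alternative. Blocked values are given where they change a call of the 6 tested genes. Other named bone genes whose call the block changed are named in the last section.

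The 10 genes, the 6 wider lists, the 5 marker lists and the tests were chosen with earlier results of these data known. Named were all 10 genes, their read-sharing neighbours, in each other list up to 3 of the largest called rises and falls at each time among genes whose mean log2 CPM was 1 or more, of which the text gives most, and, for likeness, the 3 genes with the highest r (log2 CPM, prior count 2) for 3 of the 10. Some genes chosen by these rules are not reported here. Alternatives were DESeq2 1.42.0 size factors, library size only, no filter, at least 10 counts in every library, the 6 libraries of a time point alone, the replicate block, the Wald test of DESeq2, a threshold of 0.01 on the adjusted p, and each library left out in turn. Positions and promoter windows are RefSeq's (GRCh38.p14), and promoter entries were used for *RUNX2*, *MSX2*, *ALPL*, *SPP1*, *SPARC*, *BGLAP* and *IBSP*. Exon overlaps and transcript lengths are GENCODE's.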

Additional observations from a re-analysis of the deposited data

Results flagged for a closer look

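The response to NXP800 differed between 24 h and 6 h, by the test of the difference itself, for 2 of the 10 genes. In this test the hours of treatment cannot be told apart from the set of libraries. Of the 10, 6 were tested, and 25.8% of all tested genes were called in this test. With the replicate number as a block it was called for 5 of the 6, where 39.3% of all tested genes were called. The log2 response of *SPP1* was lower by 1.28 (-1.28, adjusted p = 0.0238), being -0.0089 at 6 h and -1.29 at 24 h. That of *SPARC* was lower by 1.23 (-1.23, adjusted p = 0.000113), being -0.79 at 6 h and -2.02 at 24 h.

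The same test passed for 23 of the named genes of the wider lists. Most were named for the largest called changes within a time. The 23 therefore cannot be set against the 25.8% of all tested genes that were called. Values are the 24 h response minus the 6 h response on the log2 scale. Among transcription factors the values were -0.43 for *FOSL2*, 1.37 for *DLX6*, -0.49 for *TWIST1*, 1.24 for *ZNF521* and -0.65 for *MSX1*. Among matrix proteins they were -1.28 for *FN1*, -1.51 for *THBS1*, -0.48 for *NID1*, 1.04 for *COL5A1*, -1.87 for *COL5A2* and -1.71 for *BGN*. *FN1*, *COL5A1*, *PLOD2* and *NT5E* were called in opposite directions at the 2 times, and of these 4 only *FN1* kept both calls under all alternatives tried. For collagen assembly they were -0.52 for *PLOD2*, 0.70 for *SERPINH1*, 0.52 for *BMP1* and -1.45 for *PCOLCE*, and for mineral handling -0.31 for *NT5E*, -1.69 for *ENPP1* and 0.39 for *ENTPD5*. For osteoclast signals they were -1.54 for *IL11*, -1.26 for *PTHLH*, -1.48 for *LIF* and 0.79 for *CSF1*, and *CD44* gave -0.94. Of the 23 differences, those of *PTHLH*, *FOSL2* and *ENTPD5* were lost in 10, 7 and 8 of 19 alternatives, with adjusted p of up to 0.145, 0.0821 and 0.0747, and the other 20 passed in all 19. Single libraries that ended the call of *PTHLH* when left out were replicates 1 of DMSO 24 h (-0.87), 2 of NXP800 24 h, 1, 2 and 3 of DMSO 6 h and 1 and 2 of NXP800 6 h. For *FOSL2* they were replicates 1 of DMSO 24 h, 1 of NXP800 24 h, 2 of DMSO 6 h and 1 and 2 of NXP800 6 h, and for *ENTPD5* replicates 1 and 2 of DMSO 24 h, of DMSO 6 h and of NXP800 6 h.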

How the results depend on the processing

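Within the time points, the calls of the 6 tested genes were the same in 235 of 240 recomputed results and no direction of a called value reversed. The 240 include genes with no call that again had none, and fits without a library of the other time point. The call of *DLX5* at 24 h was lost in 3 of its 20 results. Every alternative called 3 or 4 of the 6 genes at 6 h, and 4 or 5 at 24 h. The number of the 6 genes whose responses differed between the times, 2 as reported, was less stable, being 4 with library size only, 4 with no filter on low counts, 5 with the replicate number as a block, 1 with DESeq2's Wald test and 1 at an adjusted p below 0.01, and 1 to 3 with a library left out. The replicate block added *RUNX2*, *MSX2* and *DLX5* to *SPP1* and *SPARC* in that difference and *TNFRSF11B* at 6 h, and changed no other call of the 6. Of the other named bone genes it added *MSX1* and *CD44* at 6 h and *TNC* and *SPOCK1* in the difference. Over all genes, the differences called were 4129 as reported, 6284 with the block and 2236 at the stricter threshold. With library size only 59.6% of them were increases, against 46.6% as reported. Of the other bone genes named, 1162 of 1240 results within time points kept their call or again had none. Calls were lost in 72, most often those of *FAM20B* at 6 h (12), *CSF1* at 24 h (10) and *NT5E* at each time (8). Of their differences between times, 558 of 589 kept their call or again had none, and 25 lost it, those of *PTHLH*, *ENTPD5* and *FOSL2*. Changes of *SP7*, *ALPL* and *IBSP* could not be measured at this depth. Neither could those of *BGLAP*, for which reads set aside on an overlapping gene were not tested. The cause of these dependences was not tested.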
